A study of Rattus norvegicus with 24 samples.

Results

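The 5 genes Drd1, Chrm4, Pdyn, Tac1 and Isl1 mark the striatal projection neurons of the direct pathway. They were taken by symbol as markers of neurons that carry the D1 dopamine receptor, and they are 5 of the 17303 genes in the deposited table. RNA was measured in bulk tissue of the dorsolateral striatum (DLS), a region for habitual action, and of the nucleus accumbens (NAc), a region for motivation and reward. The tissue came from male Sprague-Dawley rats on postnatal day 90. On days 15 and 16 of gestation their dams had received saline or lipopolysaccharide (LPS), a bacterial membrane component that triggers innate immunity. The offspring then met unpredictable stress or only handling around puberty. The 4 combinations in the 2 regions made 8 groups of 3 libraries, 24 in all, and saline unstressed rats were the controls. The series asks how the prenatal and the later exposure act, alone and together. The labels do not say which rats shared a litter or which DLS and NAc libraries shared a rat, so the p-values speak only to the variation among these libraries.

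In the direct pathway, GABA-releasing projection neurons of the striatum send axons straight to the output nuclei of the basal ganglia and favour action. Dopamine excites them through the D1 receptor (Drd1), which couples to cAMP production, and acetylcholine restrains the same cAMP signal through the M4 muscarinic receptor (Chrm4). The cells release peptides cut from prodynorphin (Pdyn) and from the substance P precursor (Tac1) along with GABA. The LIM-homeodomain factor Isl1 directs their development in mice and is also used by striatal cholinergic interneurons. Their counterparts of the indirect pathway carry the D2 receptor (Drd2) and the enkephalin precursor (Penk).

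The promoters of Pdyn, Tac1 and Drd1 are shown because Pdyn varied together with Tac1 and with Drd1 between NAc libraries, as given further on. Each run holds 250 bases before and 50 bases from the annotated start, 5′ to 3′, from RefSeq on GRCr8, whose table matched 5 of 5 genes by symbol. Capitals mark a TATA box (TATAAA), a variant cAMP response element (TGCGTCA) and a homeodomain palindrome (TAATTA).
Pdyn, minus strand, chr3:137366454-137366753: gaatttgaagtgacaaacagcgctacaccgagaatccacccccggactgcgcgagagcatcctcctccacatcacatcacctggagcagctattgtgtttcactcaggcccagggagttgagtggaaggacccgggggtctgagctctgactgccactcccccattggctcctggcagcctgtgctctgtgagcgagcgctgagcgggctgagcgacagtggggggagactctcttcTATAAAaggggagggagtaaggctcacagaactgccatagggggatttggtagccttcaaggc
Tac1, plus strand, chr4:36645333-36645632: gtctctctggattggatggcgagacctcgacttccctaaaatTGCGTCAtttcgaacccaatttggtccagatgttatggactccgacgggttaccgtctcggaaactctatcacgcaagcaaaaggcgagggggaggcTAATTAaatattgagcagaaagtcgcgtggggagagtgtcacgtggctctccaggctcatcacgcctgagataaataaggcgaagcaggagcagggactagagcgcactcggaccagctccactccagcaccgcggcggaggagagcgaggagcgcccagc
Drd1, plus strand, chr17:10546354-10546653: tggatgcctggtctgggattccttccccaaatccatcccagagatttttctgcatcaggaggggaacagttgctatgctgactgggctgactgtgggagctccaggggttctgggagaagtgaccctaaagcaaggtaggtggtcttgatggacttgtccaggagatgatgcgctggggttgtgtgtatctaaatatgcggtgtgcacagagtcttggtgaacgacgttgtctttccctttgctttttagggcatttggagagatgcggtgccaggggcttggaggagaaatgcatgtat
These 3 motifs, the full cAMP response element TGACGTCA and the AP-1 site TGACTCA were searched on both strands of the 5 promoters, and no motif overlapped another in a match. Pdyn held TATAAA beginning at position -13. Tac1 held TGCGTCA at -208 and TAATTA at -111. None of the 5 motifs occurred in the windows of Drd1, Chrm4 or Isl1. Of 33469 rat promoter windows of this length, 14.22% held TATAAA, 1.903% TGCGTCA, 5.357% TAATTA, 1.829% TGACGTCA and 4.631% TGACTCA. A match describes these letters and no more.

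All 5 genes were above the table's lowest entry in all 24 libraries, and 15 of 17 genes shared by projection neurons could be tested in DLS. The deposited values are headed FPKM but have lost their decimal separator, so each is known only up to a power of 10. Levels of different genes therefore cannot be compared, and the depth of the libraries is unknown. Within a gene, relative levels were read along the narrowest arc of its digits on a circle of 1 decade. A gene was tested where its libraries spanned at most 0.5 decades, a 3.16-fold range. Drd1, Chrm4, Pdyn and Tac1 met this in DLS, all 5 met it in NAc, and Drd1 and Chrm4 met it over both regions together. Isl1 spanned 0.551 decades in DLS, so its DLS values come from a wider limit of 0.7 decades, which leaves a narrower gap to a reading a decade away. Each level below is a ratio to the geometric mean of the region's 3 control libraries, and libraries are listed as replicates 1, 2 and 3. In the deposited table, whose genome build is not given in the sources used here, Drd1 lies at chr17:13212155-13215581 and Chrm4 at chr3:87531939-87539676. Pdyn lies at chr3:127809951-127822294, Tac1 at chr4:33499890-33507861 and Isl1 at chr2:66871789-66883936.

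**Figure D1:**
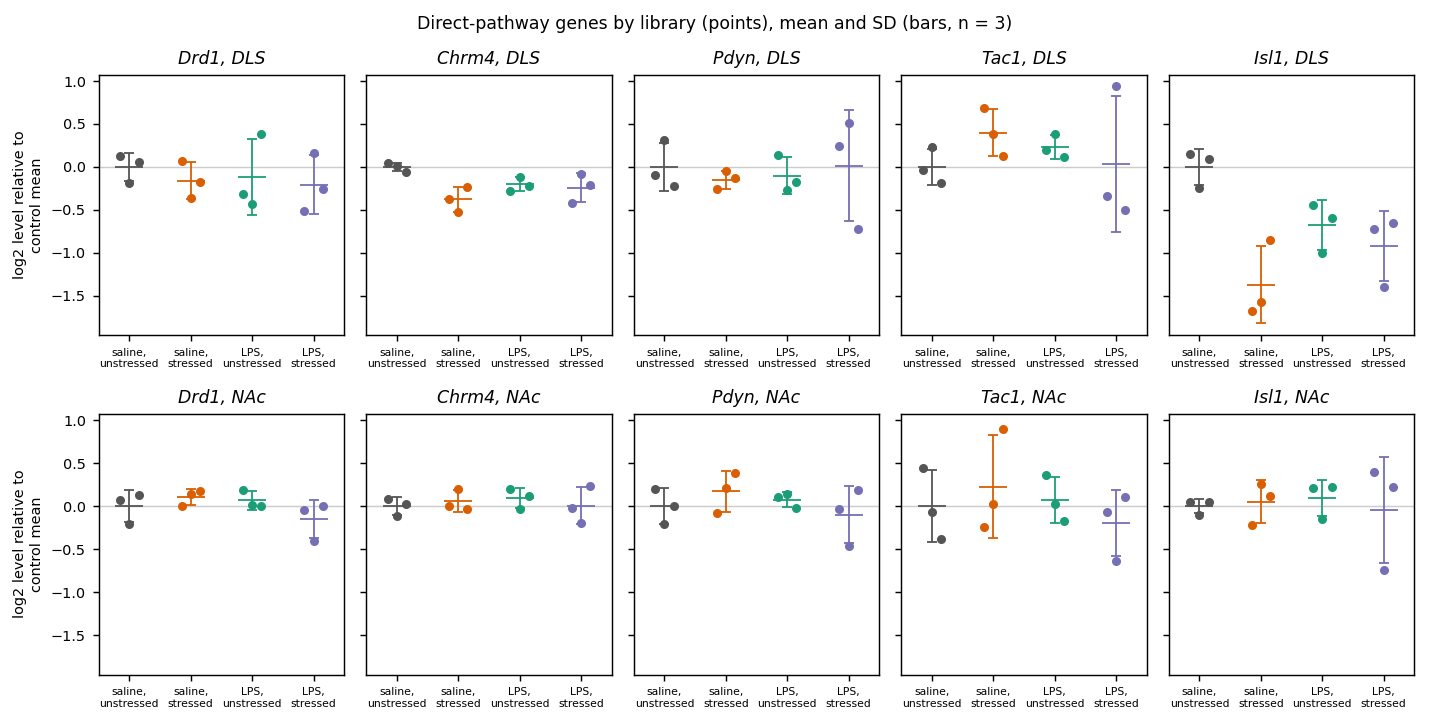
Log2 level of each gene in each library relative to the control mean of its region, by prenatal and stress group, with dorsolateral striatum above and nucleus accumbens below. Points are libraries and bars are the mean and SD of 3. In DLS all 9 exposed libraries of Isl1 and of Chrm4 lie below their controls, while one NAc library of LPS stressed rats is the lowest for all 5 genes.

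In DLS the M4 receptor gene was lower in every exposed group than in controls, whereas the D1 receptor gene overlapped its controls in every group. Chrm4 stood at 1.03, 1.01 and 0.962 in controls and at 0.774, 0.695 and 0.852 in stressed saline rats. It stood at 0.826, 0.924 and 0.860 after LPS alone and at 0.745, 0.943 and 0.863 after LPS and stress. All 9 exposed libraries lay below all 3 controls, a pattern shown by 0.992% of the 9275 genes tested in DLS, and by 13.7%, 5.02% and 3.49% for the 3 exposed groups taken singly. By group the exposed mean was 0.771-fold, 0.869-fold and 0.846-fold of control for stress, LPS and the combination. The stress main effect, the mean of the stressed minus that of the unstressed groups, was -0.21 ± 0.09 (SE) on the log2 scale. Its unadjusted p was 0.0490 and its adjusted p 0.637 (limma, Benjamini-Hochberg over all genes tested), so the difference did not pass. The interaction, by how much the stress effect differed with LPS, was 0.34 ± 0.19 (adjusted p = 0.829). The LPS main effect of Chrm4 was -0.03 ± 0.09. With libraries weighted by their quality (array weights) the stress effect was -0.13.

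Drd1 stood at 1.09, 0.881 and 1.04 in DLS controls and at 1.05, 0.778 and 0.883 in stressed saline rats. It stood at 0.802, 0.742 and 1.31 after LPS alone and at 0.698, 1.12 and 0.836 after the combination. LPS replicate 3 was the highest library and LPS stressed replicate 1 the lowest, so the LPS groups reached to both sides of the controls, and stressed saline rats had 1 library below them. Its stress main effect was -0.12 ± 0.16 with a 95% interval from -0.48 to 0.23, and the LPS main effect was -0.08 ± 0.16. The interaction was 0.07 ± 0.33. Between libraries of a group Drd1 had an SD of 0.31 log2 in DLS against 0.12 for Chrm4, and the median of all tested genes was 0.24. A share of 7.29% of DLS genes had an unadjusted p below 0.05 for stress, 1.61% for LPS and 5.19% for the interaction. No gene of the 9275 passed the adjusted threshold in these comparisons (0%), so 0 of 4 tested direct-pathway genes did.

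The peptide genes varied more between rats of a group than the receptors did, with an SD of 0.44 log2 for Tac1 and 0.37 for Pdyn in DLS. Tac1 stood at 0.973, 1.17 and 0.876 in DLS controls, at 1.61, 1.31 and 1.09 in stressed saline rats and at 1.14, 1.30 and 1.08 after LPS alone. After LPS and stress it stood at 0.793, 1.92 and 0.706. Stressed saline replicates 1 and 2 lay above all controls, while the combined group held both the highest library and the lowest. The stress main effect of Tac1 was 0.10 ± 0.22 and the interaction -0.60 ± 0.44 (adjusted p = 0.843). That interaction was -1.05 without LPS stressed replicate 2 and -0.33 without replicate 3, so single libraries set its size. The LPS main effect was -0.07 ± 0.22.

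Pdyn stood at 0.936, 1.25 and 0.858 in DLS controls, at 0.835, 0.964 and 0.912 in stressed saline rats and at 1.10, 0.827 and 0.885 after LPS alone. After the combination it stood at 1.18, 1.43 and 0.608. The combined group reached past the controls on both sides, and the other groups each had 1 library just below them. For Pdyn the stress main effect was -0.02 ± 0.19, the LPS main effect 0.03 ± 0.19 and the interaction 0.26 ± 0.38 on the log2 scale. The interval of the stress effect, from -0.43 to 0.40, spans both directions. In LPS stressed replicate 2 of DLS both peptide genes were the highest of all 12 libraries, and in replicate 3 both were the lowest.

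Isl1 showed the lowest levels relative to control of the 5 genes in DLS. It stood at 1.11, 0.847 and 1.07 in controls and at 0.312, 0.336 and 0.555 in stressed saline rats. It stood at 0.734, 0.499 and 0.665 after LPS alone and at 0.607, 0.381 and 0.634 after LPS and stress. All 9 exposed libraries lay below all controls, which 0.934% of the 11025 genes within the wider limit showed. Taken alone, 14.2% of genes lay below all controls in the 3 stressed saline libraries, 5.38% after LPS and 3.70% after the combination. The group means were 0.387-fold, 0.624-fold and 0.527-fold of control. If the digits were instead read a full decade up, they would be 3.87-fold, 6.24-fold and 5.27-fold, a reading that needs a wider range among the libraries. The limit on the range also removes genes with a larger spread, so those spanning more than 0.7 decades were not tested.

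The stress main effect of Isl1 in DLS was -0.81 ± 0.19 on the log2 scale, 0.572-fold, with a 95% interval from -1.22 to -0.39. The unadjusted p was 0.00135 and the adjusted p 0.671 (limma, over 11025 genes), so it did not pass. At this limit 6.51% of genes had an unadjusted p below 0.05. The interaction was 1.13 ± 0.38 (adjusted p = 0.888), so the stress estimate was less negative after LPS than after saline, and 4.52% of genes had an unadjusted p below 0.05 there. The LPS main effect, averaged over stress, was -0.12 ± 0.19, with LPS alone below control and LPS with stress above stress alone. The sign of the stress effect held with each library left out, from -0.94 to -0.69. In bulk tissue, fewer cells of a type and less RNA per cell cannot be told apart.

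**Figure D2:**
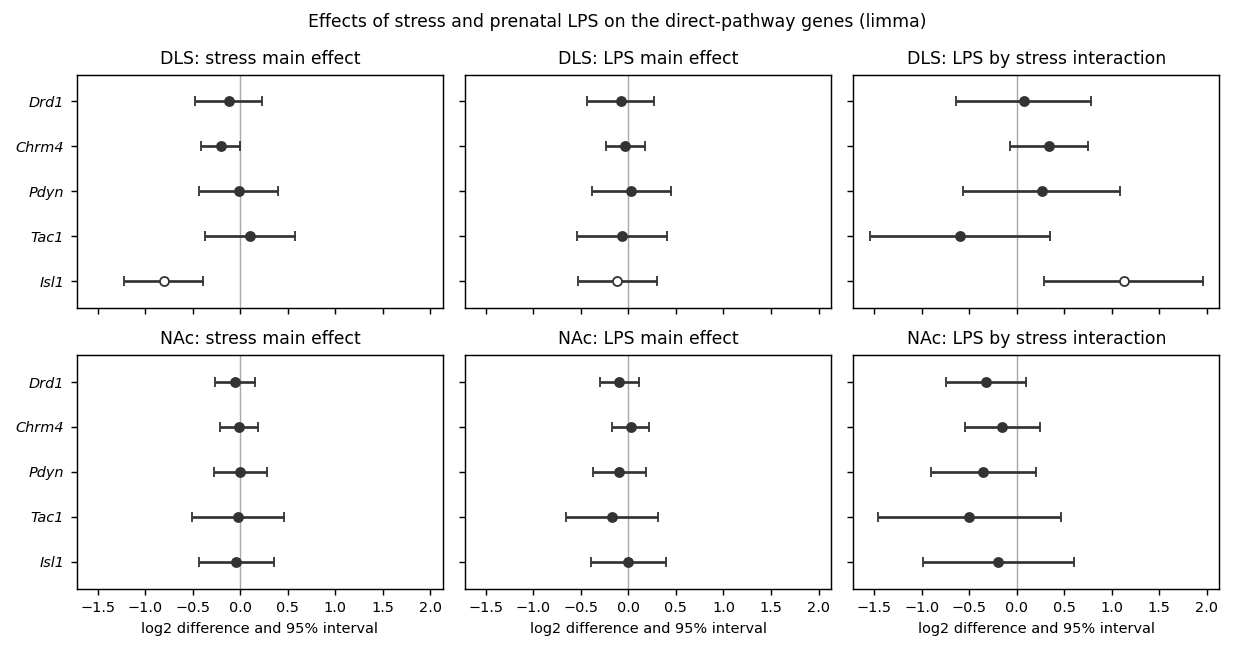
Log2 difference with its 95% interval from limma for the stress main effect, the LPS main effect and their interaction, for the 5 genes in dorsolateral striatum (above) and nucleus accumbens (below). Filled points used the limit of 0.5 decades and open points, for Isl1 in DLS, that of 0.7. The intervals of Isl1 for stress and for the interaction and that of Chrm4 for stress in DLS do not reach 0, and no difference passed after adjustment.

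Other measured features also varied across the DLS libraries. The mean log2 level of 67 ribosomal protein genes, relative to control, was 0.41 ± 0.27 (SD, n = 3) in stressed saline rats, 0.28 ± 0.39 after LPS and 0.35 ± 0.43 after the combination. It ran from -0.16 to 0.31 in controls, and the exposed groups overlapped that range. With that index as a covariate the stress effect of Isl1 was -0.68 (adjusted p = 0.688) and the interaction 0.94. In LPS replicate 3 and LPS stressed replicate 3 the ribosomal index was -0.16 and -0.13, at the low end of the controls, and Isl1 stood at 0.665 and 0.634 of control. In replicate 2 of these groups the index was 0.57 and 0.52, and Isl1 stood at 0.499 and 0.381, the lowest of each group. Stressed saline replicate 1 had the highest index, 0.72, and the lowest Isl1, 0.312. The index of 7 microglia markers was above its 3 controls in every exposed library, at 0.52 ± 0.33, 0.37 ± 0.28 and 0.34 ± 0.04. Of single genes, 14.9%, 5.33% and 3.99% lay above all controls in the 3 exposed groups taken singly. The index of 9 astrocyte markers was 0.37 ± 0.27, 0.16 ± 0.13 and 0.20 ± 0.25, and each exposed group overlapped the controls. Whether glial RNA or what the ribosomal index follows accounts for the level of Isl1 was not tested.

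Cholinergic interneurons are the other striatal cells with Isl1, and the groups overlapped in their markers. The index of 5 tested markers ran from -0.66 to 0.36 in DLS controls and from -0.26 to 0.44 in stressed saline rats, which overlap. Chat, the acetylcholine-synthesising enzyme, had a stress main effect of 0.13 ± 0.21. Of the 5 markers 4 had an estimate above 0 and 1 below, with a median of 0.09 against 0.01 over all genes, and none passed. For LPS in DLS, where Isl1 stood at 0.624 of control after LPS alone, all 5 had an estimate below 0 (median -0.11), as had 49.8% of genes, and none passed. Stressed saline replicate 1 had the highest cholinergic index of the 12 DLS libraries, 0.44, and the lowest Isl1, 0.312 of control. Control replicate 2 had the lowest index in DLS, -0.66, and the lowest Isl1 of the controls, 0.847. In NAc, LPS stressed replicate 2 had the lowest index, -0.86, and the lowest Isl1, 0.596 of control. Whether Isl1 followed these cells was not tested.

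**Figure D3:**
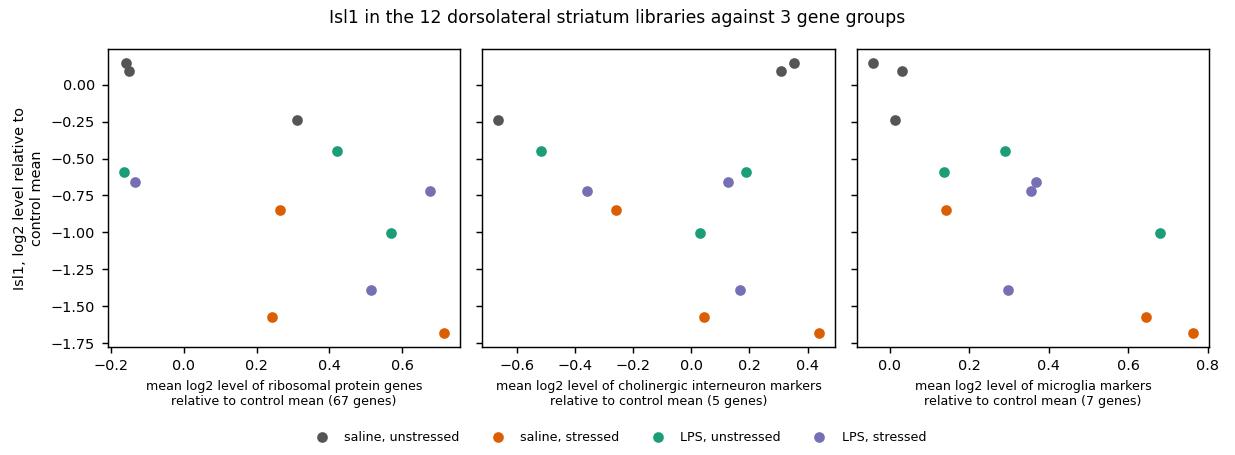
Log2 level of Isl1 relative to control in the 12 dorsolateral striatum libraries against the mean log2 level of ribosomal protein genes, cholinergic interneuron markers and microglia markers. Each point is a library coloured by group. The 3 controls are highest for Isl1 and lowest for microglia markers, and stressed saline replicate 1 is lowest for Isl1 at the highest cholinergic value. Control replicate 2 has the lowest cholinergic value and the lowest Isl1 of the controls.

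Genes whose products work with LIM-homeodomain factors were tested beside Isl1. Ldb2, an adaptor that joins LIM domains into transcription complexes, had a DLS stress main effect of -0.62 ± 0.14 (adjusted p = 0.637). Its group means were -1.05 ± 0.40 in stressed saline rats, -0.25 ± 0.29 after LPS and -0.44 ± 0.10 after the combination (log2, SD, n = 3), so stress alone was lowest, as for Isl1. Its interaction was 0.86 ± 0.28 (adjusted p = 0.829). Lhx6, a LIM-homeodomain factor of cortical and striatal interneurons, had a stress effect of -0.38 ± 0.11 (adjusted p = 0.637). Of the 7 tested LIM partners 3 had an estimate below 0 and 4 above it, with a median of 0.01, that of all genes.

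In NAc none of the 5 genes was separated from its controls by an exposure. Isl1 stood at 1.03, 0.935 and 1.03 in controls and at 0.857, 1.20 and 1.09 in stressed saline rats. It stood at 1.16, 0.905 and 1.16 after LPS and at 1.32, 0.596 and 1.17 after the combination. Every exposed group had libraries above and below the control range. Stress gave a main effect of -0.04 ± 0.18 with an interval from -0.44 to 0.35. The stress effect of Isl1 was 0.76 ± 0.27 higher in NAc than in DLS (adjusted p = 0.914 at the limit of 0.7, where 3.03% of genes had an unadjusted p below 0.05), a difference that did not pass. Its LPS main effect in NAc was 0.00 ± 0.18 and its interaction -0.19 ± 0.36, which became 0.16 without LPS stressed replicate 2.

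Drd1 stood at 1.05, 0.866 and 1.10 in NAc controls, at 1.01, 1.10 and 1.13 in stressed saline rats and at 1.14, 1.01 and 1.00 after LPS. After LPS and stress it stood at 0.968, 0.757 and 1.00. The groups overlapped, with 1 library of the combined group below all controls. The largest NAc estimate of Drd1 was the interaction, -0.33 ± 0.19 (adjusted p = 1.00), which was -0.20 without LPS stressed replicate 2. The stress and LPS main effects were -0.05 ± 0.10 and -0.10 ± 0.10.

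Chrm4 stood at 1.06, 0.925 and 1.02 in NAc controls, at 1.00, 1.15 and 0.980 in stressed saline rats, at 1.15, 0.979 and 1.08 after LPS and at 0.988, 0.871 and 1.18 after the combination. The groups overlapped, and the lower level seen in exposed DLS libraries had no counterpart in these values. Its stress main effect was -0.01 ± 0.09 with an interval from -0.21 to 0.19, the LPS main effect 0.02 ± 0.09 and the interaction -0.15 ± 0.18. The difference between regions in the stress effect of Chrm4 was 0.19 ± 0.12 (adjusted p = 0.934), and that of Drd1 was 0.07 ± 0.19 (adjusted p = 0.962).

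Pdyn stood at 1.15, 0.865 and 1.00 in NAc controls, at 0.945, 1.16 and 1.31 in stressed saline rats, at 1.08, 1.10 and 0.984 after LPS and at 0.977, 0.727 and 1.14 after the combination. Tac1 stood at 1.36, 0.955 and 0.769 in controls, at 0.846, 1.02 and 1.87 in stressed saline rats, at 1.28, 1.02 and 0.885 after LPS and at 0.958, 0.644 and 1.07 after the combination. For both peptide genes stressed saline replicate 3 was the highest library and LPS stressed replicate 2 the lowest. The stress main effects were 0.00 ± 0.13 for Pdyn and -0.02 ± 0.22 for Tac1, and the LPS main effects were -0.10 ± 0.13 and -0.18 ± 0.22. The interactions were -0.35 ± 0.25 for Pdyn and -0.50 ± 0.44 for Tac1. Of the 10616 genes tested in NAc 0% passed for any of these comparisons, and 0.895%, 3.55% and 1.78% had an unadjusted p below 0.05 for stress, LPS and the interaction. All 5 direct-pathway genes had a negative interaction estimate, as did 53.2% of genes and all tested markers of astrocytes, oligodendrocytes and cholinergic interneurons, and none of the 5 had an unadjusted p below 0.05.

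LPS stressed replicate 2 of NAc was the lowest of 12 libraries for each of the 5 genes, at 0.757 for Drd1, 0.871 for Chrm4, 0.727 for Pdyn, 0.644 for Tac1 and 0.596 for Isl1. The mean of the 5 genes there was -0.49 log2 relative to control, against -0.14 to 0.31 in the other libraries. In the same library the cholinergic interneuron index was -0.86, the indirect-pathway index -0.37 and the index of shared projection-neuron genes -0.22, while 9 oligodendrocyte markers averaged 0.46. The share of all genes that were lowest in this library is not given here, so these values describe 1 library. What its tissue held was not tested.

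Averaged over the 4 exposures, Pdyn, Tac1 and Isl1 differed more between regions than the receptors did on the narrowest reading of their digits. For Isl1 this did not hold in controls alone, where its libraries overlapped between regions. Control libraries of Chrm4 stood at 1.19, 1.16 and 1.11 of the DLS geometric mean in DLS and at 0.835, 0.727 and 0.800 in NAc. The share of all genes whose control libraries were as far apart is not given here. Drd1 was at 0.780 to 1.18 of the DLS geometric mean in the 12 NAc libraries (median 1.04) and at 0.759 to 1.42 in DLS. The regions overlapped fully, and the NAc to DLS difference was 0.05 ± 0.10 (adjusted p = 0.662) with an interval from -0.15 to 0.25. Chrm4 was at 0.685 to 0.927 in NAc and at 0.801 to 1.19 in DLS. Of its 12 NAc libraries 7 lay below all DLS libraries, for which no share over all genes is given here. It was 0.809-fold as high in NAc, a log2 difference of -0.31 ± 0.06 (adjusted p = 0.000197), and passed. Of the 7667 genes tested over both regions 66.0% passed, 39.7% as lower in NAc and 26.2% as higher, and the median of all genes was -0.08, so a call is common here.

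Pdyn spanned 0.655 decades over both regions and Isl1 0.667, so they were fitted at the limit of 0.7, where 67.4% of 9649 genes passed. Pdyn was at 1.59 to 2.86 of the DLS mean in NAc and at 0.634 to 1.49 in DLS, and all 12 NAc libraries lay above all DLS libraries, as for 2.61% of genes at this limit. It was 2.25-fold as high in NAc, a difference of 1.17 ± 0.12 (adjusted p = 3.04e-07). Isl1 was at 1.10 to 2.42 in NAc and at 0.522 to 1.85 in DLS, with 8 NAc libraries above all DLS libraries (share over all genes not given here). Averaged over the 4 exposures it was 1.88-fold as high in NAc, 0.91 ± 0.13 (adjusted p = 1.34e-05), but 0.66 with an adjusted p = 0.0544 with the ribosomal index as covariate. In control rats alone Isl1 stood at 1.85, 1.42 and 1.78 in DLS and at 1.90, 1.72 and 1.91 in NAc, which overlap, and the 9 exposed DLS libraries stood at 0.522 to 1.23. Read a decade down, the NAc levels would be 0.225-fold for Pdyn and 0.188-fold for Isl1, so both directions rest on the narrower reading. Tac1 spanned 0.737 decades and was not tested. Its NAc level was 0.494-fold of DLS on the narrowest arc, and 4.94-fold if read a decade up.

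**Figure D4:**
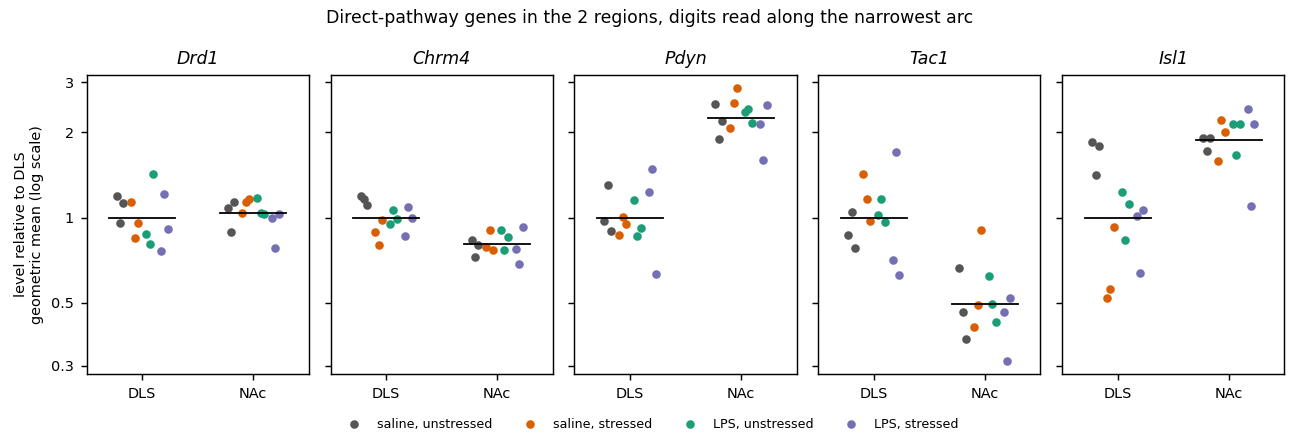
Level of each gene in the 12 libraries of each region relative to the geometric mean of DLS, on a log axis, with black lines at the geometric means and colours for the exposure. Digits were read along the narrowest arc over 24 libraries. Drd1 overlaps between regions, Chrm4 is lower in NAc, and Pdyn and Isl1 are higher on this reading, with the control libraries of Isl1 overlapping. The places of Pdyn, Isl1 and Tac1 depend on the reading of their digits.

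Within NAc, 6 of 10 pairs of direct-pathway RNAs passed a permutation test of correlation within groups, at values that many other gene pairs also reached. Deviations from the group means were correlated over the 12 libraries of a region, for the 16 pairs of genes tested. The permutation p-values were adjusted over these pairs. Because the deviations sum to 0 in each group, which the permutation ignored, these p-values tend to be too small. A pass here is therefore weaker than its adjusted p reads. Drd1 and Pdyn had Pearson r = 0.84 (p = 0.00067, adjusted p = 0.0107) and Spearman rho = 0.68 (p = 0.0191, adjusted p = 0.0766). Without the libraries farthest from the median of Drd1, LPS stressed replicate 2 and control replicate 2, r was 0.69. Pdyn and Tac1 had r = 0.80 (p = 0.00228, adjusted p = 0.0122) and rho = 0.87 (p = 0.0006, adjusted p = 0.0096), with r = 0.69 without LPS stressed replicate 2 and stressed saline replicate 1. The pairing of the peptide genes passed by both measures, and the others passed by Pearson's r alone.

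Drd1 and Isl1 had r = 0.79 (p = 0.00195, adjusted p = 0.0122) and rho = 0.66 (p = 0.0240, adjusted p = 0.0769), and r was 0.66 without the outermost libraries. Drd1 and Chrm4 had r = 0.74 (p = 0.00539, adjusted p = 0.0216) and rho = 0.73 (p = 0.00836, adjusted p = 0.0669), and r fell to 0.56. Chrm4 and Isl1 had r = 0.71 (p = 0.00855, adjusted p = 0.0249) and rho = 0.70 (p = 0.0141, adjusted p = 0.0750), and r fell to 0.50. These relations weakened once the outermost libraries were left out. Pdyn and Isl1 had r = 0.70 (p = 0.00934, adjusted p = 0.0249) and rho = 0.53 (p = 0.0793, adjusted p = 0.181), but r = 0.30 without LPS stressed replicate 2 and stressed saline replicate 1, so that relation rested on them. The other 4 NAc pairs did not pass. Of all pairs among the 10616 genes tested in NAc, 5.12% had an r at least that of Drd1 with Pdyn and 12.0% one at least that of Pdyn with Isl1. The remaining 4 passing pairs lay between, so other gene pairs also reached such values. Over the partners of a single gene, 0.320% of genes had an r with Drd1 at least that of Pdyn. With Pdyn, 0.264% had one at least that of Drd1. Such single-gene shares ran from 0.264% to 9.90% over the passing pairs, the highest for Tac1 with Pdyn.

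In DLS none of 6 pairs passed. Pdyn and Tac1 came closest, with r = 0.63 (p = 0.0382, adjusted p = 0.0763) and rho = 0.42 (p = 0.177, adjusted p = 0.283). Their r was -0.06 without LPS stressed replicates 2 and 3, so it rested on those libraries. Drd1 and Pdyn, paired in NAc, had r = -0.01 (p = 0.969, adjusted p = 0.969) and rho = -0.09 (p = 0.783, adjusted p = 0.835) in DLS, where r was -0.38 without LPS replicate 3 and LPS stressed replicate 2. The difference between the regions' correlations was not tested.

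Across 9031 genes within the limit in each region, the nearest neighbours of the 4 members that met it there were sought over the 24 libraries, with each region's mean removed. These r values describe libraries that share unknown depth and composition and carry no p. Drd1 ran most with Kcnab1, a beta subunit of voltage-gated potassium channels (r = 0.91), with the channel gene Kcna4 (0.88) and with the calcium sensor gene Stim2 (0.85). Chrm4 ran most with Sgce, which encodes epsilon-sarcoglycan (0.83), Qrich1 (0.76) and the inhibitory synapse scaffold Gphn (0.75). Pdyn ran most with Lypd1 (0.85), RGD1564664 (0.83) and the trafficking GTPase gene Arf4 (0.83).

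Tac1 ran most with the actin regulator gene Arpc2 (0.87), Ubl3 (0.87) and Penk (0.86), so the peptide gene of the indirect pathway was closer to it than Drd1, Chrm4 or Pdyn, and Isl1 was not among the genes compared. The r of Tac1 with Penk was 0.91 in DLS and 0.81 in NAc. With Pdyn it was 0.61, which put Pdyn at rank 1265 among the neighbours of Tac1, and with Drd1 it was 0.40. Penk was 0.63 ± 0.26 above control in stressed saline DLS (log2, SD, n = 3), above all controls in 3 of 3 libraries as for 14.9% of genes, where Tac1 was at 0.40 ± 0.28. In NAc, Penk was at -0.41 ± 0.13 after LPS alone and at -0.40 ± 0.16 after the combination. Its LPS main effect there was -0.46 ± 0.18 (adjusted p = 0.823), beside -0.18 for Tac1.

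**Figure D5:**
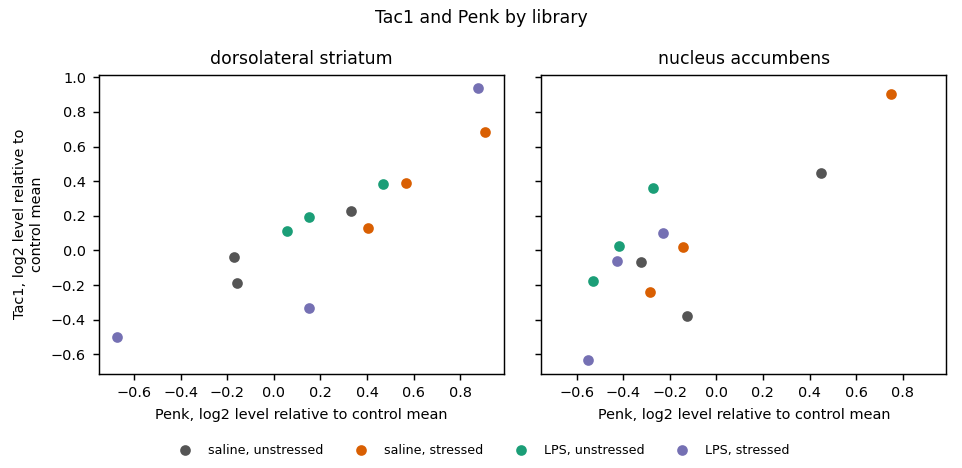
Log2 level of Tac1 against that of Penk, each relative to its control mean, in the 12 libraries of dorsolateral striatum and the 12 of nucleus accumbens, coloured by group. Libraries with more Penk have more Tac1 in each region, with r = 0.91 in DLS and 0.81 in NAc, as a description.

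Among the other genes of these neurons, no list gene passed within a region. With array weights the LIM partners Ldb2 and Lhx6 passed for stress in DLS, at -0.75 (adjusted p = 0.0264) and -0.44 (adjusted p = 0.0446). They were among 217 genes that passed with these weights, against 0 without them, and some array-weight fits did not converge. Of 4 tested further markers of direct-pathway cells 3 had a DLS stress estimate below 0, with a median of -0.12 against 0.01 over all genes, of which 47.4% were below 0 and 52.6% above. Slc35d3, a transporter-like protein that in mice helps bring the D1 receptor to the cell surface, had the smallest p of them, at -0.37 ± 0.14 (adjusted p = 0.637). It lay below all controls in 3 of 3 stressed saline libraries, as did 13.7% of genes, in 3 of 3 LPS libraries, as did 5.02%, and in 2 of 3 of the combination. Sfxn1, a mitochondrial carrier gene, was at -0.21 ± 0.25. In NAc all 4 had a stress estimate below 0, as had 49.4% of genes (median -0.07), led by the transcription factor gene Zfp521 at -0.16 ± 0.12, and 3 of 4 had an LPS estimate below 0 (median -0.10), where Sfxn1 was at 0.15 ± 0.09.

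Of 7 indirect-pathway markers 5 had a DLS stress estimate below 0 (median -0.07), as had 47.4% of all genes. P2ry1, a purine receptor gene, was at -0.73 ± 0.25 and Sp9, a factor needed for indirect-pathway neurons in mice, at -0.49 ± 0.18 (each adjusted p = 0.637). For LPS in DLS 6 of 7 were below 0, as were 49.8% of all genes (median -0.14), with Adora2a at -0.21 ± 0.16 and Drd2 at -0.25 ± 0.22. In NAc 5 of 7 were below 0 for LPS, as were 50.1% of genes (median -0.14), led by Penk and by the adenosine receptor gene Adora2a at -0.22 ± 0.10. The NAc stress median was -0.08, with Gpr6 at -0.16 ± 0.11, and all 7 had a negative NAc interaction (median -0.19), with P2ry1 at -0.36 ± 0.31. In the DLS interaction 5 of 7 were below 0, as were 54.2% of genes (median -0.26), with Penk at -0.73 ± 0.44 and Adora2a at -0.57 ± 0.33.

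Of 15 tested genes shared by both kinds of projection neuron 11 had a DLS stress estimate below 0 (median -0.16), as had 47.4% of all genes. The GABA-synthesising enzyme Gad2 was at -0.63 ± 0.25 and Gnal, the G protein that couples D1 to cyclase, at -0.22 ± 0.11. For LPS, 12 of 15 were below 0 in DLS (median -0.12) and 12 of 16 in NAc (median -0.06), as were 49.8% and 50.1% of genes. The D1 target Ppp1r1b, encoding DARPP-32, was at -0.24 ± 0.15 in DLS and -0.28 ± 0.12 in NAc, where Rgs9, a brake on G-protein signals, was at -0.24 ± 0.11. In the NAc interaction 15 of 16 were below 0 (median -0.21), as were 53.2% of genes, 7 of 7 astrocyte markers, 9 of 9 oligodendrocyte markers and 5 of 5 cholinergic markers. None of these values passed.

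The cascade downstream of the D1 receptor overlaps the preceding list, as with Gnal, so it is not a separate set of genes. It gave 17 tested genes in DLS, 11 of them below 0 for stress (median -0.16), as were 47.4% of all genes. Gnal and the kinase subunit gene Prkar2b (-0.22 ± 0.11) had the smallest p. In NAc 13 of 18 were below 0 for LPS (median -0.05), as were 50.1% of genes, with the phosphatase gene Ppp1ca at -0.18 ± 0.08. Of 4 tested peptide-processing genes in DLS 2 lay on each side of 0 for stress (median 0.03), with the carboxypeptidase gene Cpe at 0.22 ± 0.10 and the convertase gene Pcsk2 at -0.32 ± 0.16. Of the receptors for dynorphin and tachykinins 0 of 4 could be tested in DLS and 1 of 4 in NAc, where its stress estimate was -0.12. Of 4 tested genes of acetylcholine signalling in DLS 3 were above 0 (median 0.05), and the esterase gene Ache was at -0.27 ± 0.15.

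Over both regions several partners of the direct-pathway genes passed, where 66.0% of all genes did. Of 3 tested indirect-pathway markers 2 passed as lower in NAc, Drd2 at -0.66 ± 0.13 and Gpr6 at -0.58 ± 0.09, beside Chrm4 at -0.31 and Drd1 at 0.05. Of 10 shared projection-neuron genes 4 passed as lower, among them the transcription factor gene Bcl11b (-0.42 ± 0.07), and 2 as higher, among them Gad1 (0.31 ± 0.07). In the D1 cascade 3 of 11 passed as higher, led by the kinase subunit gene Prkar1b (0.62 ± 0.08), and 2 as lower, led by Ppp1ca (-0.85 ± 0.07). Of 4 peptide-processing genes the chaperone gene Scg5 (-0.62 ± 0.12) and Cpe (-0.30 ± 0.06) passed as lower and Pcsk2 (0.42 ± 0.10) as higher. With the ribosomal index as covariate Scg5 and Pcsk2 changed sign, to 0.0357 and -0.0802, and Cpe lost its call at -0.0887 (adjusted p = 0.565). Of 2 acetylcholine genes Ache passed as higher (0.28 ± 0.10), and of 6 LIM partners Lhx6 did (0.53 ± 0.09) and 2 were lower, including Ssbp4 (-0.77 ± 0.07). With that covariate Ache and Lhx6 also lost their calls, at 0.10 (adjusted p = 0.735) and 0.31 (adjusted p = 0.168), while Drd2 moved to -1.17, Gad1 to 0.47 and Ssbp4 to -0.38 and still passed.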

How the data were processed

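Poly(A)-selected, strand-specific RNA libraries were made from dissected tissue, per the labels' protocols. Per the submitters' processing notes the tools included STAR 2.6.25.17 and Cuffdiff 2.2.1, and what each did, the annotation and the genome build were not stated in the sources used. The authors deposited 1 table headed FPKM whose values lack a decimal separator, and they were treated as a score. It holds 415272 values, of which 97026 are listed as 1 (no level) and 12 are blank. Genes listed as 1 or blank in a library of the fit were left out. Log10 digits were unwrapped on a circle of 1 decade, and genes within 0.5 decades were kept, 9275 of 12091 in DLS, 10616 of 12496 in NAc and 7667 of 12001 over both. The design had allowed for FPKM, and the test was kept on the recovered log2 scale.

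In R 4.3.3, limma 3.58.1 (lmFit, contrasts.fit, eBayes) fitted group means, each region alone with 8 residual degrees of freedom and both together with 16. Benjamini-Hochberg adjustment covered all genes tested, at a threshold of 0.05. Correlations used 100000 permutations of deviations from group means, taken as exchangeable although they sum to 0 in each group, so these p-values tend to be too small. Scripts were tested on simulated data. The members and 15 gene lists were chosen with earlier results of these data known. The text names the 5 members, list genes past the threshold or, where none was, up to 2 with the smallest p, and 3 nearest neighbours a member; some genes that this rule names are not reported here. Alternatives were arcs of 0.3 and 0.7, centred libraries, array weights, robust variances, a ribosomal covariate, 1 library listed as 1, each library left out, 1 fit of 24 libraries and a replicate block. Combinations with the arc of 0.7 were added after seeing the data.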

Additional observations from a re-analysis of the deposited data

How the results depend on the processing

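Depth is unknown, and changes above about 3.16-fold, or 5.01-fold at the wider limit, cannot be seen. No member had a call within a region, so signs near 0 turned easily. Of 255 alternative fits of 42 member results 232 kept direction and side of the threshold, 22 turned and 1 lost its call. The lost call was Isl1 between regions (0.66 with the ribosomal covariate). Chrm4 between regions, and the stress effects of Chrm4 and Isl1 in DLS, kept their sign in every alternative run, the Chrm4 stress effect at -0.13 with array weights. Of 389 alternative fits of 55 list-gene results 378 kept direction and side, 4 lost a call, 3 gained one and 4 turned. The gains, all with array weights, were Ldb2 and Lhx6 for DLS stress and Lhx6 for the regions' difference in stress (0.55, adjusted p = 0.0429). The causes of the changes below were not tested.

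Genes passing for stress in DLS numbered 0, but 217 with array weights, and for the regions' difference in stress and in LPS 0 became 570 and 5. Some array-weight fits did not converge. The 5057 genes passing between regions became 2364 at the arc of 0.3, where fewer genes are tested, and 1250 with the ribosomal covariate. Left-out libraries gave 4846 to 5354 there and 0 to 0 in the other comparisons. In libraries with title numbers 12 apart, deviations from group means correlated at -0.52 to 0.33, above 0.1 in 6 of 12 pairs. These correlations were not compared with those of other pairings, so whether such libraries shared a rat was not tested. With these pairs as a replicate block 4945 genes passed between regions and 0 in the differences between regions, and no member changed its call.

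With array weights these turned: in DLS stress Drd1 (0.00553) and Pdyn (0.16), in DLS LPS Tac1 (0.30), in the DLS interaction Adora2a (0.0656), in NAc stress Drd1 (0.0421), Chrm4 (0.0607) and Pdyn (0.0788), and in NAc LPS Drd1 (0.00131), Pdyn (0.0374) and Isl1 (0.14). So did Drd1 between regions (-0.0146) and in the differences in stress (-0.00691) and LPS (0.0668), the last also with centred libraries (0.000684). With the ribosomal covariate these turned: in DLS Tac1 (-0.0535) and Sfxn1 (0.12) for stress, Pdyn (-0.0430) for LPS and Drd1 (-0.0424) for the interaction, in NAc Pdyn (0.0275) and Tac1 (0.0663) for stress and Tac1 (0.0737) and Isl1 (0.0217) for LPS. Between regions Drd1 (-0.0830), Scg5 (0.0357) and Pcsk2 (-0.0802) turned, and Pdyn in the difference in LPS (0.0456).

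Leaving out single libraries turned 73 of 648 member fits, over these ranges. In DLS, stress ran from -0.21 to 0.00427 for Drd1, -0.14 to 0.17 for Pdyn, -0.12 to 0.24 for Tac1 and -0.0335 to 0.21 for Chat. LPS ran from -0.0729 to 0.0121 for Chrm4, -0.0959 to 0.21 for Pdyn, -0.29 to 0.0663 for Tac1 and -0.20 to 0.0128 for Isl1, and the Drd1 interaction from -0.11 to 0.33. In NAc, stress ran from -0.10 to 0.0107 for Drd1, -0.0719 to 0.0371 for Chrm4, -0.0748 to 0.0887 for Pdyn, -0.19 to 0.0969 for Tac1 and -0.15 to 0.13 for Isl1. LPS ran from -0.0360 to 0.0730 for Chrm4 and -0.11 to 0.18 for Isl1, and the Isl1 interaction from -0.41 to 0.16. The regions' difference in stress ran from -0.0569 to 0.16 for Drd1 and -0.17 to 0.14 for Pdyn. That in LPS ran from -0.00215 to 0.11 for Chrm4, -0.0897 to 0.11 for Drd1 and -0.0133 to 0.29 for Isl1. Among these, at the limit of 0.7 decades Isl1 reached 0.000371 for LPS in DLS and -0.000861 for the regions' difference in LPS, each without DLS LPS with stress replicate 2. At that limit, single omissions gave Pdyn -0.0648, -0.0588, -0.0464, -0.0389, -0.0377, -0.0104 and -0.00206 for the regions' difference in stress.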

Other observations

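Most astrocyte and microglia markers had a stress estimate above 0 in DLS, and oligodendrocyte markers were lower in NAc. In DLS the stress estimates of 7 of 9 astrocyte markers lay above 0 (median 0.26), with S100b at 0.42 ± 0.11 and Apoe at 0.33 ± 0.14. So did those of 6 of 7 microglia markers (median 0.34), with the protease gene Ctss at 0.50 ± 0.14 and the complement gene C1qa at 0.44 ± 0.18. The remaining microglia marker was at -0.40. Its unadjusted p was below 0.05 (limma), as for 4 of the 6 above 0. Of all genes 52.6% had an estimate above 0. None of the markers passed (adjusted p = 0.637 for each named gene in limma), and the median of all genes was 0.01. Ctss also had a DLS LPS estimate of 0.34 ± 0.14 (adjusted p = 1.00). In NAc the stress medians were -0.02 for 7 astrocyte and -0.02 for 8 microglia markers. Of 7 oligodendrocyte markers, led by the myelin gene Mog (-0.67 ± 0.07), 6 passed as lower in NAc than in DLS. So did 39.7% of the 7667 genes tested over both regions, so such a call is common. S100b was at -0.61 ± 0.07, or -0.29 (adjusted p = 0.0585) with the ribosomal covariate. The DLS stress median was -0.02 for 8 oligodendrocyte markers, 0.17 for 5 vascular markers and 0.11 for 2 GABA interneuron markers. Of 5 markers of cortical excitatory neurons 0 could be tested in either region.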
